A study of Mus musculus with 4 samples.

Results

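The genes described here are the 10 genes of the MHC class II antigen presentation pathway in a mouse model of acute myeloid leukemia (AML): the chain genes H2-Aa, H2-Ab1 and H2-Eb1, the peptide-loading genes H2-DMa, H2-DMb1, H2-DMb2, H2-Oa and H2-Ob, the invariant chain gene Cd74 and the transactivator gene Ciita. They were taken by gene symbol from the 23552 Ensembl genes of the FPKM table. FPKM is the number of sequenced fragments of a gene, scaled by its transcript length and by the mapped fragments of the library. Genes were tested where their FPKM averaged 0.5 or more across the 4 libraries, and 9 of the 10 were among the 13736 genes that reached it. Ciita did not.

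All cells came from C57BL/6 mice (C57BL/6J in the study's methods) with AML induced by the MLL-AF9 fusion gene, so both groups carried that oncogene. The control group expressed eGFP alone and the SUV-OE group expressed Suv39h1 with eGFP, each from a lentivirus put into serially passaged MLL-AF9 leukemia cells. Suv39h1 is a histone methyltransferase that places H3K9me3, a mark of silent chromatin. The infected cells were sorted for eGFP and transplanted into sublethally irradiated mice, which keep blood-forming cells of their own. The c-Kit+ leukemic cells were then enriched from the bone marrow of moribund animals. There were 2 libraries a group, control replicates 3 and 4 and SUV-OE replicates 2 and 3, all from RNA-seq batch 2. The mice used for experiments were 8-week-old females. The labels do not say whether each library was a separate mouse, so the p-values measure only the spread between these libraries. Suv39h1 itself was at an FPKM of 12.4 in both controls, 75.3 in SUV-OE replicate 2 and 81.2 in replicate 3. Kit, the gene of the marker used for enrichment, was at 20.4 and 19.2 in the controls and 28.6 and 25.4 in SUV-OE. The reads recovered from the FPKM summed to between 20110328 and 23597809 per library. The FPKM themselves were scaled by fewer, from 16873770 in control replicate 4 to 19453058 in control replicate 3.

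MHC class II molecules are pairs of an alpha and a beta chain that show peptides from the endosomal pathway to CD4+ T cells. The invariant chain, Cd74, occupies the peptide groove of a new class II molecule. H2-DM then exchanges the last fragment of the invariant chain for peptide, and H2-DO restrains H2-DM. B cells, dendritic cells and macrophages carry the molecules at high level, and Ciita is the coactivator that joins the factors bound to the X and Y boxes of class II promoters. The C57BL/6 haplotype makes the I-A molecule from H2-Aa and H2-Ab1 and is known to lack the alpha chain of I-E, the partner of H2-Eb1. H2-Ea, the gene of that alpha chain, was not analysed here.

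The promoters are shown first, because the X and Y boxes are the sequence feature that class II genes are known to share. RefSeq windows on GRCm38.p6, running from 250 bases before to 50 after a transcript's start, were at hand for 7 of the 10 genes, in 8 windows. The Y box core ATTGG, searched on both strands, stood in 7 of the 8 windows and in 37.4% of 32851 windows of all genes. The X box core, spelled AG, any 2 bases, AC, any 3 bases and TG and also searched on both strands, stood in 4 of the 8 windows and in 14.8% of all. An X core followed by a Y core on the gene's strand, with 20 to 45 bases between their starts, occurred in the windows of H2-Ob, H2-Eb1 and H2-DMb1. That spacing was set after the windows were seen, and it occurred in 0.198% of all windows. The stretches below run 5′ to 3′ on the gene's strand, with the Y core and, where it lies at that spacing, the X core in capitals.
H2-Ob, chr17:34238795-34238860, plus strand: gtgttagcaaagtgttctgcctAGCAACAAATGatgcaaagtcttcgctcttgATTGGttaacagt
H2-Eb1, chr17:34305755-34305820, plus strand: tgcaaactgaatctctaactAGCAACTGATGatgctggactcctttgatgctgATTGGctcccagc
H2-DMb1, chr17:34153077-34153142, plus strand: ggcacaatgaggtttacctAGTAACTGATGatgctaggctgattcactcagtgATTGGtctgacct
H2-DMb2, chr17:34145106-34145171, plus strand: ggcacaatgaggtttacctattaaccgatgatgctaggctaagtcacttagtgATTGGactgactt
H2-Aa, chr17:34287859-34287924, minus strand: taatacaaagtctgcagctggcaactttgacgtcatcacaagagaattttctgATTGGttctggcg
H2-Oa, chr17:34092283-34092348, plus strand: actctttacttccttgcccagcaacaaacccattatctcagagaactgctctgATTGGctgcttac

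Counted from the transcript's start, the Y core began at -57 in H2-Ob, -59 in H2-Eb1, -61 in H2-DMb1, -90 in H2-DMb2, -48 in H2-Aa and -43 in H2-Oa. H2-Eb1 held another Y core nearer its start, and a window of H2-DMa, not printed, held its core farther away, at -198. The X core preceded it by 31 bases in H2-Ob, 33 in H2-Eb1 and 34 in H2-DMb1. A match of these letters is a description and not a measured binding site. The 3 genes with the spaced pair of cores had unlike fold changes, from -0.08 for H2-DMb1 to 1.27 for H2-Ob.

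The levels of the 10 genes spread widely. H2-DMa had the highest mean FPKM of the 10, above that of 93.8% of all genes in the table, and H2-DMb1 came next at 92.5%. H2-Ab1 followed them, above 84.8% of genes. H2-Ob, Cd74, H2-Oa, H2-Eb1 and H2-DMb2 lay between 56.3% and 62.7%, and H2-Aa lay at 48.5%. Ciita was last, above 17.2% of genes. Within the middle group the libraries of neighbouring genes overlapped, so their order there was not resolved.

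**Figure D1:**
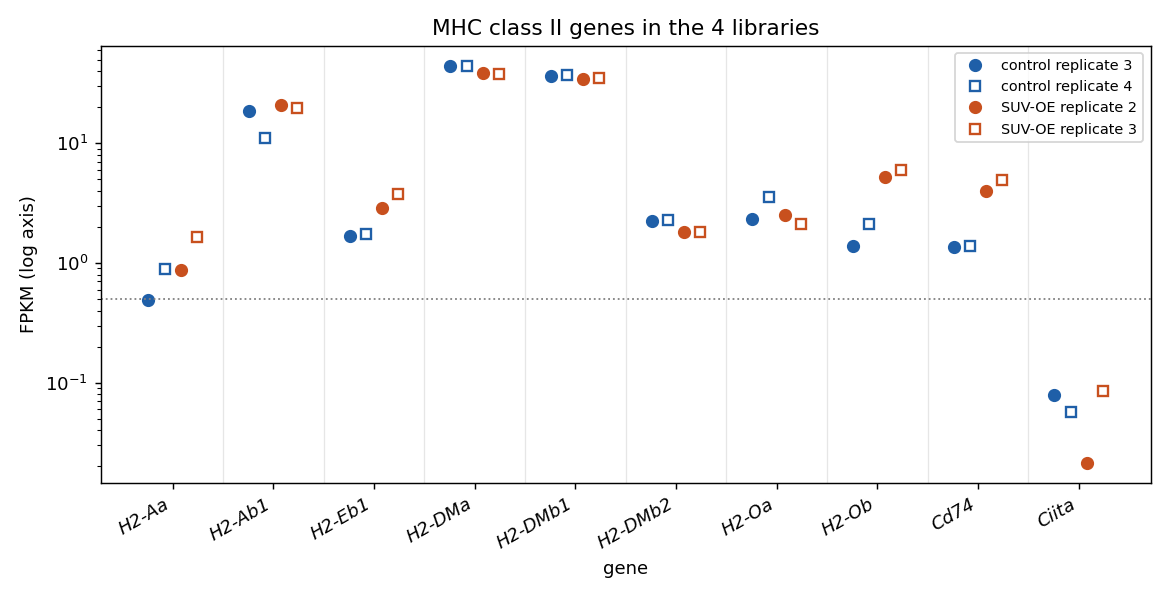
FPKM of the 10 MHC class II genes on a log axis, with 1 point for each library (blue for control, orange for SUV-OE) and a dotted line at the mean FPKM of 0.5 required for testing. Both SUV-OE libraries lie above both controls for H2-Ob, Cd74, H2-Eb1 and H2-Ab1, while H2-DMa and H2-DMb1 sit near the top in every library and Ciita sits below 0.1.

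The 3 chain genes had higher mean FPKM in SUV-OE, but none of them passed the test. H2-Ab1 (ENSMUSG00000073421, chr17:34257689-34269419 on mm10), the beta chain of I-A, was at an FPKM of 18.6 and 11.0 in control replicates 3 and 4, and at 20.8 and 19.6 in SUV-OE replicates 2 and 3. The SUV-OE libraries lay above the controls, with control replicate 3 close to them and control replicate 4 apart. The log2 fold change of FPKM + 1 was 0.46 ± 0.25 (SE, n = 2 per group), with an adjusted p of 0.369 from limma. Its size rested on control replicate 4: without that library it was 0.11, and without control replicate 3 it was 0.82, neither of them called.

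H2-Aa (ENSMUSG00000036594, chr17:34282744-34287823), the alpha chain of the same molecule, was read far less. Its FPKM was 0.494 and 0.885 in the controls and 0.872 and 1.65 in SUV-OE, and the groups overlapped. These values rest on at least 18 and 28 reads in the controls and at least 29 and 55 in SUV-OE. H2-Aa had a log2 fold change of 0.41 ± 0.25 (SE), with a 95% interval from -0.24 to 1.05 and an adjusted p of 0.412 (limma). It was 0.66 without SUV-OE replicate 2, 0.16 without SUV-OE replicate 3, 0.24 without control replicate 3 and 0.87 with limma-voom. H2-Eb1 (ENSMUSG00000060586, chr17:34305867-34316674), the I-E beta chain, was at 1.69 and 1.75 in the controls and 2.86 and 3.80 in SUV-OE. Both SUV-OE libraries lay above both controls, which differed little from each other. H2-Eb1 differed by a log2 fold change of 0.66 ± 0.16 (SE), with an interval from 0.23 to 1.09, an unadjusted p of 0.0109 and an adjusted p of 0.139 in limma.

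H2-DMa and H2-DMb1, whose product loads peptide onto class II molecules, were high in every library, and none of the 3 H2-DM genes passed the test. H2-DMa (ENSMUSG00000037649, chr17:34119541-34139101), the alpha chain, was at an FPKM of 44.4 and 44.0 in the controls and 38.6 and 37.6 in SUV-OE. The SUV-OE libraries were below the controls, by a log2 fold change of -0.21 ± 0.11 (SE, adjusted p = 0.355, limma). Its annotated exons share 360 bases with Brd2 on the opposite strand, and the library kit did not mark strand, so reads there cannot be told apart. H2-DMb1 (ENSMUSG00000079547, chr17:34153072-34160230), a beta chain, was at 36.1 and 37.4 in the controls and 34.6 and 34.9 in SUV-OE. The difference was small, at a log2 fold change of -0.08 ± 0.11 (SE) with a 95% interval from -0.36 to 0.20 (adjusted p = 0.719, limma), and it turned to 0.046 under quantile normalization.

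H2-DMb2 (ENSMUSG00000037548, chr17:34143307-34151555), the near-identical neighbour of H2-DMb1, was at 2.25 and 2.29 in the controls and 1.81 in both SUV-OE libraries. All 4 values rest on at least 55 reads each. The difference was a log2 fold change of -0.22 ± 0.13 (SE, adjusted p = 0.412, limma). Reads that match both genes may have been split between them in a way the files do not record, so the separate levels of the pair are uncertain.

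The H2-DO genes, whose product restrains H2-DM, differed from each other. H2-Ob (ENSMUSG00000041538, chr17:34238903-34254414), the beta chain, was at an FPKM of 1.39 and 2.12 in the controls and 5.24 and 5.98 in SUV-OE, which rest on at least 85, 113, 293 and 335 reads. Both SUV-OE libraries were well above both controls, and the mean was 1.75 ± 0.522 in the controls and 5.61 ± 0.523 in SUV-OE (SD, n = 2 each), a ratio of 3.19. The log2 fold change of FPKM + 1 was 1.27 ± 0.18 (SE), with a 95% interval from 0.80 to 1.75 and an unadjusted p of 0.00109. The adjusted p was 0.0596 in limma, so H2-Ob was not called a differentially expressed gene (DEG), for which the adjusted p had to be under 0.05 and the log2 fold change 1 or more in either direction. It was called by limma-voom on the recovered reads, with a log2 fold change of 1.72 and an adjusted p of 0.0107.

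H2-Oa (ENSMUSG00000024334, chr17:34092340-34095234), the alpha chain, was at 2.31 and 3.56 in the controls and 2.53 and 2.10 in SUV-OE. The groups overlapped, with control replicate 4 the highest of the 4 libraries. H2-Oa had a log2 fold change of -0.23 ± 0.21 (SE, adjusted p = 0.564, limma), which was -0.00059 without control replicate 4, -0.14 without SUV-OE replicate 3 and -0.46 without control replicate 3. Its exons share 321 bases with BC051537 on the opposite strand, a gene whose own FPKM did not exceed 0.142.

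Cd74 was the only one of the 10 genes that passed the limma test. The gene (ENSMUSG00000024610, on chromosome 18) was at an FPKM of 1.35 and 1.39 in the controls and 3.96 and 4.91 in SUV-OE. The controls lay close together and the SUV-OE libraries well above them, resting on at least 37 and 33 reads against at least 99 and 123. The mean rose from 1.37 ± 0.0269 to 4.43 ± 0.672 (SD, n = 2 each), a ratio of 3.24. The log2 fold change was 1.19 ± 0.15 (SE), with a 95% interval from 0.80 to 1.58, an unadjusted p of 0.000625 and an adjusted p of 0.0488 in limma. The call was narrow. With a pseudocount of 0.1 the adjusted p was 0.0524, with quantile normalization 0.0633 and without the filter on low values 0.138. With any 1 library left out it lay between 0.121 and 0.332, while the log2 fold change stayed between 1.07 and 1.32.

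Ciita (ENSMUSG00000022504, chr16:10480059-10528418), the transactivator of the pathway, was near the limit of detection. It was at an FPKM of 0.0783 and 0.0564 in the controls and 0.0215 and 0.0856 in SUV-OE, from at least 8, 5, 2 and 8 reads. The groups overlapped and no fold change is given. A difference in Ciita was not detectable at this depth. Its exons also share 329 bases with Dexi on the opposite strand, which was at 1.77 to 2.45.

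Set beside all tested genes, the members lay on both sides of the controls. Among the 9 tested, 1 was a DEG with higher expression in SUV-OE, against 0.815% of the 13736 genes, and 0 were DEGs with lower expression, against 0.408%. At an unadjusted p under 0.05 there were 3 (H2-Eb1, H2-Ob and Cd74), each higher in SUV-OE, against 10.3% of all tested genes. Both SUV-OE libraries lay above both controls for 4 of the 9 (H2-Ab1, H2-Eb1, H2-Ob and Cd74), where the share over all tested genes was 25.4%. For 3 of the 9 (H2-DMa, H2-DMb1 and H2-DMb2) both lay below, where the share was 28.4%, and H2-Aa and H2-Oa overlapped. The median log2 fold change of the 9 was 0.41, beside -0.02 for all tested genes. With limma-voom, H2-Ob and Cd74 were called higher, against 3.57% of 14330 genes.

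**Figure D2:**
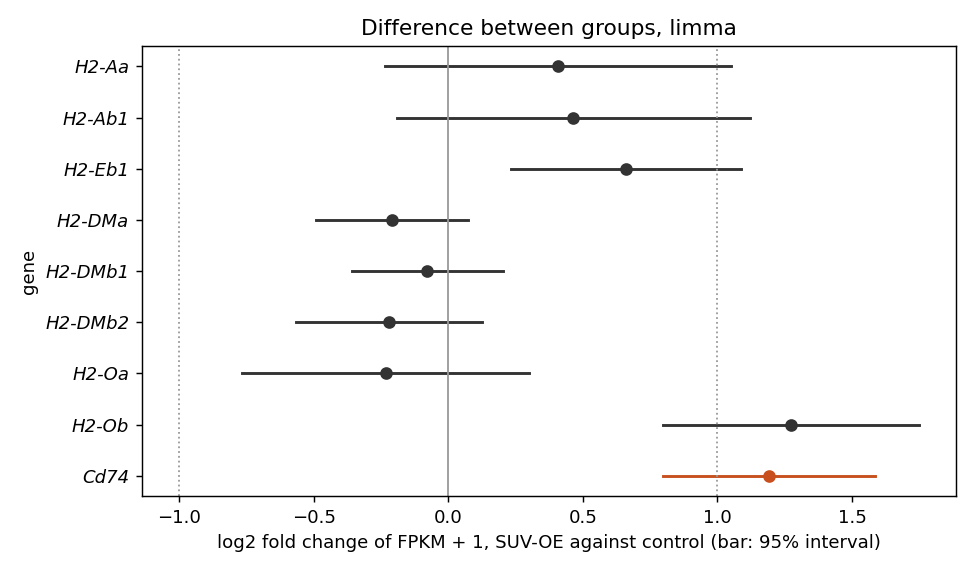
Log2 fold change of FPKM + 1 between SUV-OE and control for the 9 tested genes, from limma with 2 libraries per group; bars are 95% intervals, dotted lines mark a change of 1 in either direction, and orange marks the DEG. Intervals of Cd74, H2-Ob and H2-Eb1 lie above 0, and those of the other 6 genes include 0.

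FPKM is scaled by length, so genes can be set against each other within a library, and these ratios show how unevenly the pathway was expressed. The 2 chains of I-A were far apart: the FPKM of H2-Ab1 was 37.7 and 12.4 times that of H2-Aa in the controls and 23.8 and 11.8 times in SUV-OE, with the groups overlapping. The 2 chains of H2-DM were nearly level by FPKM, at a ratio of H2-DMa to H2-DMb1 of 1.23 and 1.18 in the controls and 1.12 and 1.08 in SUV-OE. Reads that match both H2-DMb1 and H2-DMb2 leave the level of H2-DMb1 uncertain. By FPKM, the order of the H2-DO chains turned over. The ratio of H2-Ob to H2-Oa was 0.600 and 0.596 in the controls and 2.07 and 2.85 in SUV-OE, so the alpha chain was the higher in both controls and the beta chain the higher in both SUV-OE libraries.

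H2-DMa exceeded Cd74 by 32.9 and 31.7 times in the controls and by 9.76 and 7.66 times in SUV-OE. H2-DMb1 exceeded H2-Ob by 26.1 and 17.6 times in the controls and by 6.62 and 5.84 times in SUV-OE. Both ratios were lower in SUV-OE without overlap of the groups. The ratios were not tested.

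**Figure D3:**
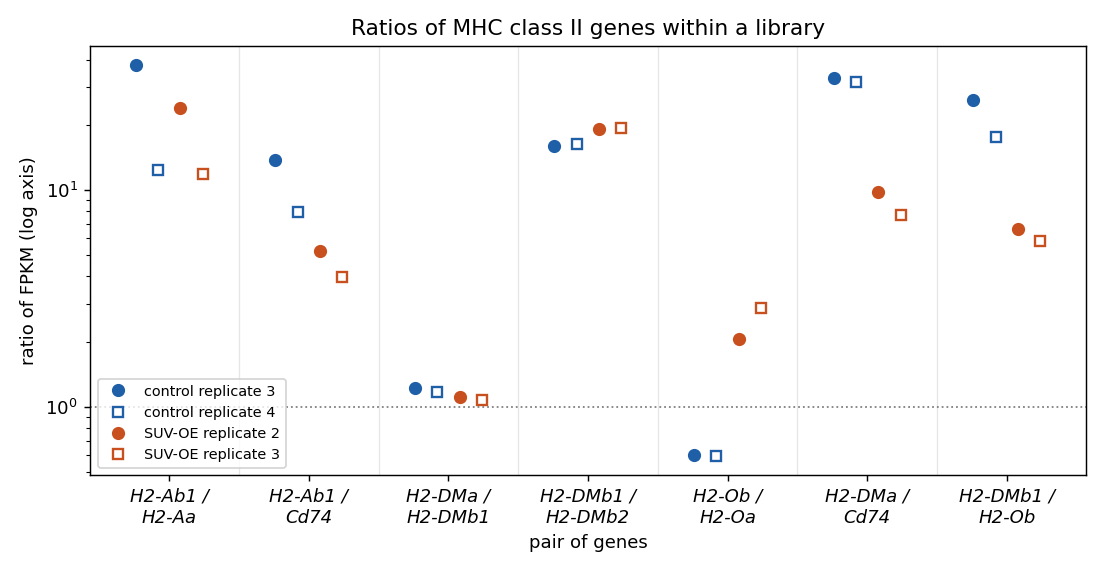
Ratio of the FPKM of 2 MHC class II genes within the same library, on a log axis, with 1 point for each library and a dotted line at equal FPKM. H2-Ob over H2-Oa lies below 1 in both controls and above 2 in both SUV-OE libraries, while H2-DMa over H2-DMb1 lies between 1.08 and 1.23 in every library.

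The 8 members on chromosome 17 lie together, their starts spanning 213.527 kb. H2-Oa, H2-DMa, H2-DMb2 and H2-DMb1, at the end nearer the centromere, had log2 fold changes from -0.23 to -0.08. H2-Ob, H2-Ab1, H2-Aa and H2-Eb1, at the other end, had log2 fold changes from 0.41 to 1.27. None of the 8 was a DEG in limma, limma-voom called H2-Ob, and a pattern along the stretch was not tested. The sign of H2-DMb1 turned under quantile normalization, and the groups overlapped for H2-Oa and H2-Aa. Within 500 kb of the start of H2-Ab1, 48 other genes were tested. Of these, 18 had both SUV-OE libraries above both controls, 7 had both below and 23 overlapped, where the shares over all tested genes were 25.4% and 28.4%, and their median log2 fold change was 0.06. Over all tested genes, 0.815% were DEGs higher in SUV-OE and 0.408% were DEGs lower. The 2 DEGs among the 48, named after their values were seen, were Gm4152 (log2 fold change 1.23, adjusted p = 0.0434, limma) and Stk19-ps1 (-1.29, adjusted p = 0.0405). Both rested on few reads, at least 9 and 10 in the controls for Gm4152 and at least 6 in each SUV-OE library for Stk19-ps1. Gm4152 was not called by limma-voom (adjusted p = 0.0887), which called H2-K2, annotated as a transcribed pseudogene, higher (log2 fold change 1.11, adjusted p = 0.0221).

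**Figure D4:**
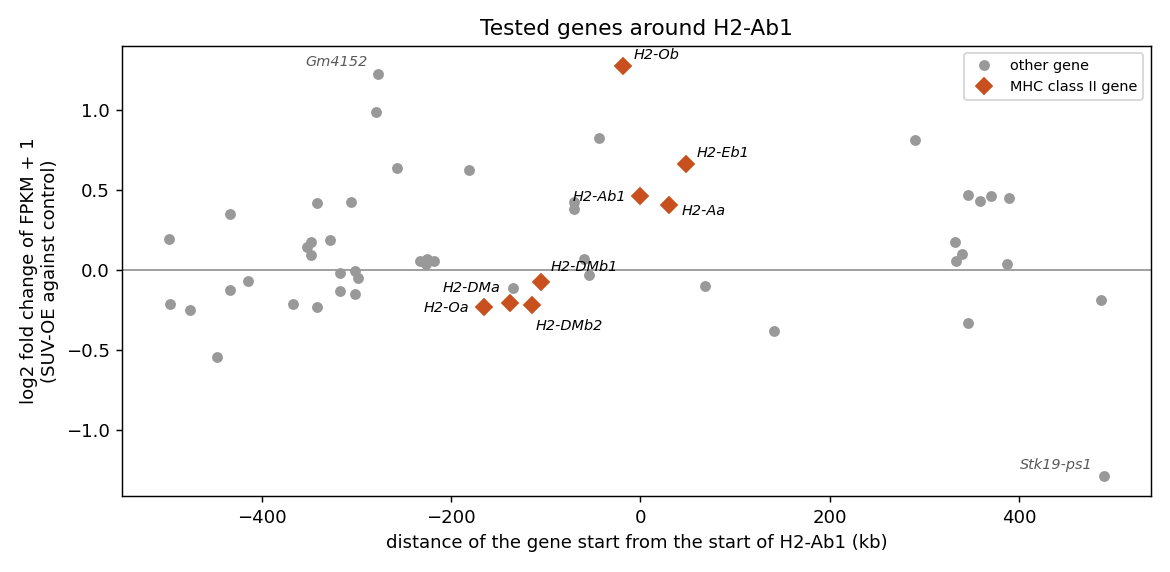
Log2 fold change of FPKM + 1, SUV-OE against control, for the 56 tested genes within 500 kb of H2-Ab1, against the distance of each gene's start from that of H2-Ab1 in kb. Orange diamonds are the class II genes, 4 of them below 0 on the left and 4 above 0 on the right, and grey points are the other genes.

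Genes on a list of class II promoter factors, chromatin cofactors and interferon gamma signalling were read in every library, in contrast to the few reads of Ciita. All 20 genes of that list were tested, and 1 was a DEG with higher expression in SUV-OE, against 0.815% of all tested genes. Both SUV-OE libraries lay above both controls for 9 and below for 4, against 25.4% and 28.4% of all tested genes. The median log2 fold change of the 20 was 0.15. The DEG was Irf8, a transcription factor of dendritic cells, monocytes and B cells, at an FPKM of 5.22 and 5.01 in the controls and 11.6 and 11.0 in SUV-OE (log2 fold change 1.01 ± 0.11 SE, adjusted p = 0.0405, limma). Irf4, a factor of B cells and dendritic cells, had a log2 fold change of 0.66 (adjusted p = 0.179) and was not called in limma. In limma-voom Irf8 and Irf4 were both called higher, against 3.57% of 14330 genes. Irf4 had a log2 fold change of 2.09 in limma-voom (adjusted p = 0.0417). The X box factors Rfx5, Rfxap and Rfxank overlapped between the groups, at log2 fold changes of 0.09, -0.12 and 0.11.

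A list of genes of lysosomal processing, from proteases to lysosome membrane proteins, held no DEG. Of 17 such genes 16 were tested, and 0 were DEGs in limma or in limma-voom. At an unadjusted p under 0.05 in limma there was 1, against 20.7% of all tested genes. Without overlap, 2 lay above and 5 below the controls, against 25.4% and 28.4% of all tested genes. The median log2 fold change of the 16 was -0.05. Ctss, the protease that cuts the invariant chain, was at 7.12 and 9.64 in the controls and 10.9 and 10.4 in SUV-OE, with a log2 fold change of 0.32 (adjusted p = 0.347). Among the genes tested in limma, Lgmn, an endopeptidase, had the largest difference without overlap, 0.63 (adjusted p = 0.171). The next largest lay below the controls, Cd63 at -0.51 (adjusted p = 0.320, limma) and Ctsl at -0.43 (adjusted p = 0.245, limma).

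Interferon gamma is the classic inducer of Ciita and of class II. Of 20 genes that respond to it 16 were tested, and 12 of the 16 had both SUV-OE libraries above both controls and 1 had both below, against 25.4% and 28.4% of all tested genes, with a median log2 fold change of 0.50. None was a DEG in limma (11 at an unadjusted p under 0.05, against 20.7% of all tested genes). Of 19 that limma-voom tested, 5 were called higher, against 3.57% of 14330 genes. Gbp2, a guanylate-binding protein, was at 1.12 and 0.707 in the controls and 3.27 and 4.90 in SUV-OE (log2 fold change 1.40, adjusted p = 0.0718, limma). Nlrc5, the transactivator of MHC class I, had a log2 fold change of 1.03 (adjusted p = 0.139), and Irgm2 of 1.02 (adjusted p = 0.0840). Among the MHC class I genes, H2-K1 lay above the controls without overlap (0.64, adjusted p = 0.237, limma), and H2-D1 and B2m overlapped. Of the 3, 0 were called in limma or limma-voom. At an unadjusted p under 0.05 in limma there was 1, against 20.7% of all tested genes.

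Of the 8 costimulation genes, 3 were high enough to be tested and 0 were DEGs in limma. At an unadjusted p under 0.05 there were 2, against 20.7% of all tested genes. In limma-voom Cd83 was called higher and Cd80 lower. Cd80 was at 1.48 and 1.50 in the controls and 0.596 and 0.496 in SUV-OE (log2 fold change -0.69, adjusted p = 0.118, limma), and Cd274, which encodes PD-L1, was at 2.38 and 2.00 against 4.25 and 3.93 (0.68, adjusted p = 0.102). A list of other genes in or next to the class II stretch held H2-Eb2, Brd2, Psmb8, Psmb9, Tap1, Tap2 and Btnl2, and not every gene there. Of these 6 were tested, and 0 were DEGs in limma or limma-voom. At an unadjusted p under 0.05 in limma there were 2, against 20.7% of all tested genes. Both SUV-OE libraries lay above both controls for Tap1 (0.43) and Psmb9 (0.38), where the share over all tested genes was 25.4%.

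Markers of B cells, which normally carry class II, were read at low level in the controls, apart from Cd79b. Of 14 B cell markers 8 were tested, and 7 of the 8 had both SUV-OE libraries above both controls, against 25.4% of all tested genes. The median log2 fold change of the 8 was 1.56. The summed FPKM of the 14 was 18.8 and 27.9 in the controls and 37.2 and 82.0 in SUV-OE replicates 2 and 3. Cd79b, a part of the B cell receptor whose groups overlapped, made 17.4 and 25.0 of the control sums, and without it the sums were 1.45 and 2.84 against 20.002 and 58.6. In control replicates 3 and 4, 2 and 1 of the 14 were at 0, and none was at 0 in SUV-OE. Vpreb1, the surrogate light chain gene of precursor B cells, was at 0.277 and 0.745 in the controls and 6.23 and 19.3 in SUV-OE, and Cd79a, the partner of Cd79b, at 0.635 and 1.10 against 5.49 and 11.7. Ms4a1, which encodes the mature B cell marker CD20, did not exceed 0.029 in any library. None of the 8 tested was a DEG in limma (7 at an unadjusted p under 0.05, against 20.7% of all tested genes). Of 9 markers that limma-voom tested, 3 were called higher, against 3.57% of 14330 genes.

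The SUV-OE libraries also differed from each other. Among the 8 tested B cell markers, SUV-OE replicate 3 exceeded replicate 2 by 1.36 times for Cd79b to 3.72 times for Igll1. The same ratio was 1.24 for Cd74, 1.14 for H2-Ob, 1.33 for H2-Eb1, 0.940 for H2-Ab1 and 1.89 for H2-Aa. In bulk RNA, more cells of a type and more RNA per cell cannot be told apart, and the part of B-lineage cells in the values of Cd74 and H2-Ob was not tested. Without SUV-OE replicate 3, the library with the highest markers, the log2 fold changes were 1.07 for Cd74 and 1.19 for H2-Ob, with adjusted p of 0.332 and 0.358 in limma.

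**Figure D5:**
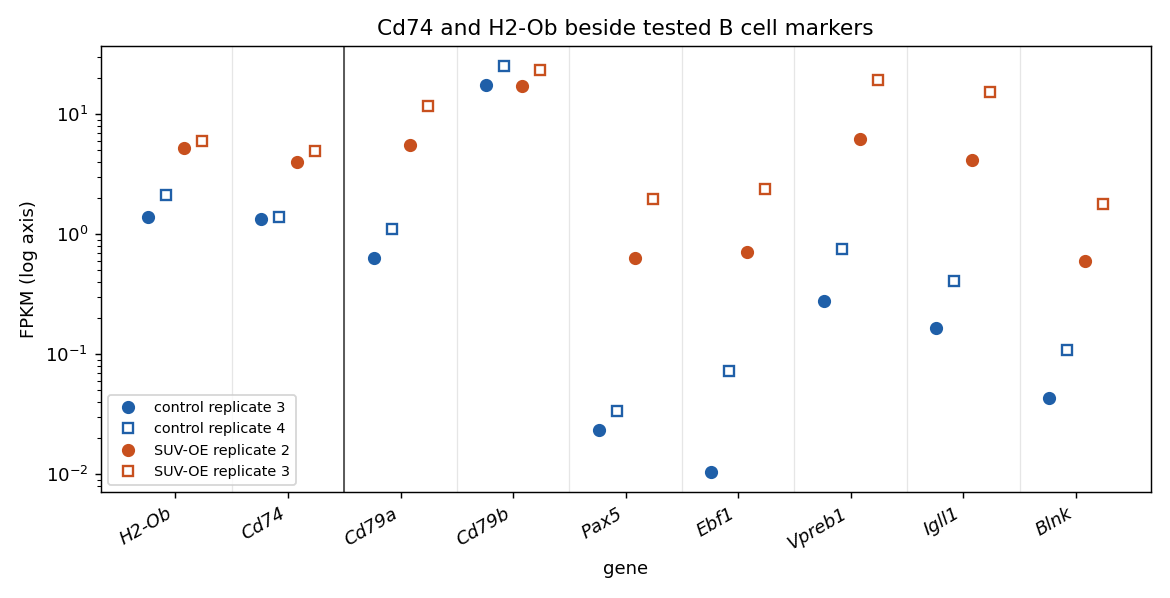
FPKM of H2-Ob and Cd74 (left of the line) and of 7 tested B cell markers on a log axis, with 1 point for each library. For 6 of the 7 markers SUV-OE replicate 3 lies above replicate 2 and both lie above the controls, and Cd79b overlaps.

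Among 14 dendritic cell markers, 6 were tested. Without overlap, 3 lay above the controls and 1 below, against 25.4% and 28.4% of all tested genes. The summed FPKM of the 14 was 68.0 and 75.3 in the controls and 82.4 and 85.1 in SUV-OE. Most of it came from Bst2 (53.8 and 62.5 in the controls, 66.2 and 73.5 in SUV-OE). In control replicates 3 and 4 and SUV-OE replicates 2 and 3, 2, 1, 0 and 1 of the 14 were at 0. Itgax, which encodes CD11c, had a log2 fold change of 1.19 (adjusted p = 0.0782, limma) and Tcf4, a factor of plasmacytoid dendritic cells, of 1.05 (adjusted p = 0.0585), while Flt3 had -0.81 (adjusted p = 0.133). Clec9a and Xcr1, markers of the cross-presenting kind, did not exceed 0.205.

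Of 14 monocyte and macrophage markers 12 were tested. Without overlap, 8 lay above the controls and 2 below, against 25.4% and 28.4% of all tested genes. The median log2 fold change of the 12 was 0.53. The complement genes C1qa and C1qb had log2 fold changes of 0.93 (adjusted p = 0.103, limma) and 0.86 (adjusted p = 0.0636). The summed FPKM was 423 and 716 in the controls and 422 and 457 in SUV-OE, and Ly6c2 alone made 545 of the 716 in control replicate 4. None of the 14 was at 0 in any library. Among 7 T and NK cell markers, 1 was tested, their summed FPKM did not exceed 2.32, and 4 and 2 of them were at 0 in the controls and 0 in SUV-OE. The dendritic and macrophage lists held 0 DEGs in limma (3 and 7 at an unadjusted p under 0.05, against 20.7% of all tested genes). In each list limma-voom called 2 higher, against 3.57% of 14330 genes. The part of dendritic cells, monocytes and macrophages in the class II values was not tested.

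The 5 tested genes whose centred log2 values lay nearest to the mean profile of the 9 members over the 4 libraries were Vsir, Necap1, Gm28417, Tbx6 and Gm17709. Their Euclidean distances to that profile were 0.0127 to 0.0271 on the log2 scale. With only 4 libraries many genes can lie that near. Vsir, which encodes the checkpoint molecule VISTA, was at an FPKM of 33.8 and 35.9 in the controls and 43.5 and 46.9 in SUV-OE.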

How the data were processed

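The authors prepared TruSeq RNA v2 libraries, a kit that does not mark strand, from c-Kit+ AML cells and aligned paired-end reads to mm10 with TopHat2. The submitters' processing notes also name CASAVA 1.8. For each gene and library 1 FPKM was deposited, and the methods name Cufflinks as its source. The annotation release is not given in the sources used here. Symbols and positions came from GENCODE M21.

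FPKM values were tested with limma 3.58.1 in R 4.3.3 on log2(FPKM + 1), two-sided, with the group as the only term and an intensity trend. A gene entered the fit if its FPKM averaged 0.5 or more, which held for 13736 genes, and p-values were adjusted over all of them by the Benjamini-Hochberg method. Fold changes on this scale understate those of low genes. DEGs had an adjusted p under 0.05 and a log2 fold change of 1 or more in either direction.

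The values of 78.5% of genes were whole reads at the annotated exon length, within 0.01 of a read, as a read counter gives and not the fractional estimates of Cufflinks, so the tool that made the FPKM is uncertain. Another length was fitted for 5047 genes, including all 10 class II genes, so their reads are given as the least that fit. An added test, limma-voom on the recovered reads, called 668 DEGs. For genes fitted at another length it used the reads at the fitting length nearest to the annotated one, which can exceed those printed. A floor of 3 reads on 1 kb is an FPKM of 0.154 to 0.178, for counting error only. The limma and limma-voom fits were tried on simulated data, with changes larger than those of the members and only in genes with many reads. These trials do not show how well changes of the members' size are found.

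The members and gene lists were chosen with earlier results of these data known. The genes named were all 10 members, Suv39h1 and Kit, list genes that passed the test, the 3 largest changes without overlap of each list, defining markers, and the 5 genes nearest in profile. Rfx5, Rfxap, Rfxank, Ctss, H2-D1, B2m, Cd79b, Bst2, Ly6c2, H2-K2, Cd83, Gm4152, Stk19-ps1 and the genes overlapping members were named after their values were seen. An exact permutation test of 2 against 2 libraries cannot reach 0.05 and was not used. The alternatives were another pseudocount, other filters, 2 other scalings, fits without a trend or with a robust one, limma-voom, an adjusted p under 0.1, and leaving out each library. Results of some list genes are not reported here.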

Additional observations from a re-analysis of the deposited data

How the results depend on the processing

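Cd74 was the 1 member called in limma. The count was 0 with a pseudocount of 0.1, without a filter on low values, and under quantile normalization, and 2 with limma-voom. It was 0 with each library left out in turn, where the lone library of a group is assumed to vary like the others. The 168 DEGs of all genes became 0 of 23552 without a filter (4177 at an unadjusted p under 0.05), 668 with limma-voom and 342 at an adjusted p under 0.1. They became 0 with any 1 library left out (1146 to 3895 unadjusted), against 2842 unadjusted with all. Of the DEGs, 66.7% were higher in SUV-OE, and 76.5% with limma-voom. In the gene lists without the members, Irf8 was the 1 DEG. The count was 0 without a filter, 2 without the trend (Irf8 and Tcf4), 16 with limma-voom and 0 with a library left out. H2-DMb1 reversed to 0.046 under quantile normalization. Of 107 values of the members under alternatives, 98 kept their direction and their side of the threshold, 7 of Cd74 lost the call and 1 of H2-Ob gained it. No other member was called under any of these settings. No paired analysis was possible because control and SUV-OE have 1 replicate number in common. With 2 libraries a group, a change that fails the test is not shown to be absent. The causes of these differences were not tested.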
